A study of Homo sapiens with 6 samples.

Results

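RAB small GTPase mRNAs were followed in native RNA immunoprecipitation and sequencing (RIP-seq) of ORC1 from nuclei of HCT116 cells. The genes were taken by symbol, as RAB followed by digits and at most 1 letter, which gave 52 protein-coding genes of the 23013 genes measured. A processed pseudogene whose symbol also matched, RAB1C, was left out. The rule on symbols used no expression value, but the family was chosen with earlier results of these data known. Of the 52 genes, 49 had a mean of at least 10 normalised counts and were tested. RAB34 (mean 4.92), RAB41 (3.57) and RAB42 (9.32) lay below that minimum, while RAB19 (17.5) and RAB43 (18.7) were the lowest genes above it.

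RAB proteins are small GTPases that act as molecular switches on membranes. A guanine nucleotide exchange factor (GEF) loads a RAB with GTP on its target membrane, the active RAB recruits effectors such as tethers and motor adaptors, and a GTPase-activating protein (GAP) ends the cycle. GDP-bound RABs carry prenyl lipids and are kept soluble by GDP dissociation inhibitor (GDI). Individual RABs mark different compartments, from the Golgi apparatus to endosomes, lysosomes and secretory granules, and in epithelial cells several direct traffic to the apical surface.

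The study asked which nuclear RNAs come down with ORC1, part of the origin recognition complex, which licenses origins of DNA replication. HCT116 is an established human colorectal cancer cell line, and all 6 libraries were from nuclei of untreated cells that the study's methods describe as asynchronous. The 3 inputs received no antibody, and the 3 ORC1 IPs were pulled down with an anti-ORC1 antibody from the Bruce Stillman laboratory. The labels do not say whether the 3 replicates came from separate cultures, while the study describes the ORC1 RIP-seq as done in triplicate and its experiments in general as repeated independently. Where cultures were shared, p-values measure only the spread between these libraries, which may be technical.

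The deposited values were normalised counts from which whole reads could be recovered, 13703033 to 17248924 per input and 25134156 to 36008733 per ORC1 IP. A normalised count is a read count divided by a factor for the size of its library, so a value gives the place of a gene among the other RNAs of a library and not the amount of RNA recovered. A smaller number of bound molecules and a smaller share among other RNAs cannot be told apart. No library from a control antibody was analysed here, and the study reports that its control IgG yielded no detectable RNA. Of 10 intestinal epithelial markers, 8 were in the table, with sums of 50041 to 140276 normalised counts in the inputs and 18113 to 146460 in the ORC1 IPs, while the epithelial marker VIL1 lay between 0 and 6.30. Of 5 leukocyte markers only CD14 was listed, at 0 to 5.81. Of 6 fibroblast and endothelial markers COL1A1 and VWF were listed, with summed levels of 169 to 317 in the inputs and 442 to 824 in the ORC1 IPs, and their part in the results was not tested. The lowest epithelial sum was that of ORC1 IP replicate 2, and its part in the results was likewise not tested. Deviations from the group means of inputs and IPs with the same number correlated at -0.322, -0.240 and 0.215 across genes for replicates 1, 2 and 3, so ratios within a replicate are given only as descriptions.

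RAB mRNAs of 1 subfamily encode close relatives but can be told apart by sequence. The coding sequences of 16 pairs in 10 subfamilies were 66.2% to 89.2% identical. The stretch that encodes the phosphate-binding loop, which holds GTP, is shown for RAB11, RAB5 and RAB40, since the largest differences between members of a pair were found there, a choice made after the values were seen. Bases that differ within a subfamily are in capitals, and each stretch is 30 bases of coding sequence in 1 exon of the MANE Select transcript (GENCODE v44, GRCh38).

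RAB11A: atTggAgaTtcTggTgtTggAaagagTaaT
RAB11B: atCggGgaCtcAggCgtGggCaagagCaaC
RAB5A: ctgggAgaGtcCgcTgtTggCaaAtcAagc
RAB5B: ctgggAgaAtcTgcAgtGggAaaGtcAagc
RAB5C: ctgggGgaGtcTgcGgtAggCaaAtcCagc
RAB40A: gtgggcgacagGgacgtAggcaagAgTgag
RAB40B: gtgggcgacagCgacgtGggcaagGgCgag
RAB40C: gtgggcgacagCgacgtGggcaagGgCgag

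The RAB11 stretches lie at chr15:65877340-65877369 on the plus strand (RAB11A) and chr19:8399871-8399900 on the plus strand (RAB11B), and differ at 9 of 30 bases. Those of RAB5A (chr3:19950974-19951003, plus strand), RAB5B (chr12:55987036-55987065, plus strand) and RAB5C (chr17:42130395-42130424, minus strand) differ at 8. RAB40A (chrX:103500670-103500699, minus strand) differs at 4 bases from RAB40B (chr17:82698510-82698539, minus strand) and RAB40C (chr16:590349-590378, plus strand), whose stretches are identical to each other. Reads that cover such stretches without differences cannot be assigned by sequence alone, and the sources used here do not say how the authors treated reads matching several genes.

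To ask how the family as a whole behaved, ORC1 IPs were compared with inputs by limma on log2(normalised count + 1), 3 libraries against 3, with p-values adjusted over all 16513 genes tested. None of the 49 RAB mRNAs passed an adjusted p of 0.05 in either direction, against 2.28% of all tested genes called higher and 1.42% called lower in ORC1 IP. At an unadjusted p under 0.05, 1 RAB mRNA lay higher and 6 lower (12.2% and 9.45% of all genes), and the same counts of 1 and 6 were obtained with edgeR and with DESeq2 on recovered reads. The rule by which the study called an RNA enriched, beyond 1 on the log2 scale with an unadjusted p under 0.05, was met upward by RAB40A (10.9% of all genes) and downward by RAB11A, RAB5C, RAB38 and RAB20 (7.25% of all genes). With 1 and 4 of 49, RAB mRNAs met this rule about as often as other genes or less often, which was not tested.

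The centre of the family nevertheless lay below that of other genes. The log2 fold change of ORC1 IP over input was below 0 for 37 of 49 RAB mRNAs, against 49.3% of all tested genes, and its median was -0.31, against 0.014 for all genes. The values ran from -1.21 for RAB19 to 1.63 for RAB40A. This offset was uneven over libraries. The median log2 level of RAB mRNAs was 8.78, 8.46 and 8.53 in inputs 1, 2 and 3, and 7.83, 8.89 and 8.16 in the ORC1 IPs 1, 2 and 3. ORC1 IP 1 was thus lowest and ORC1 IP 2 highest of the 6, and the groups overlapped. Within numbered replicates, the median log2 IP/input was -1.02, 0.31 and -0.17, against -0.0055, 0.0087 and 0.054 for all genes, and 38, 21 and 30 RAB mRNAs lay below 0. ORC1 IP 1 held the lowest value of all 6 libraries for 25 of 49 RAB mRNAs (21.2% of all genes). Input 1 held the highest for 16 (9.17% of all genes), and ORC1 IP 2 for 12 (22.9% of all genes). Without ORC1 IP replicate 2, 3 RAB mRNAs (RAB11A, RAB5C and RAB26) were called lower, against 6.47% of all genes tested. Without ORC1 IP replicate 1 the median was -0.17, without input replicate 1 it was -0.13, and without ORC1 IP replicate 2 it was -0.45.

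**Figure D1:**
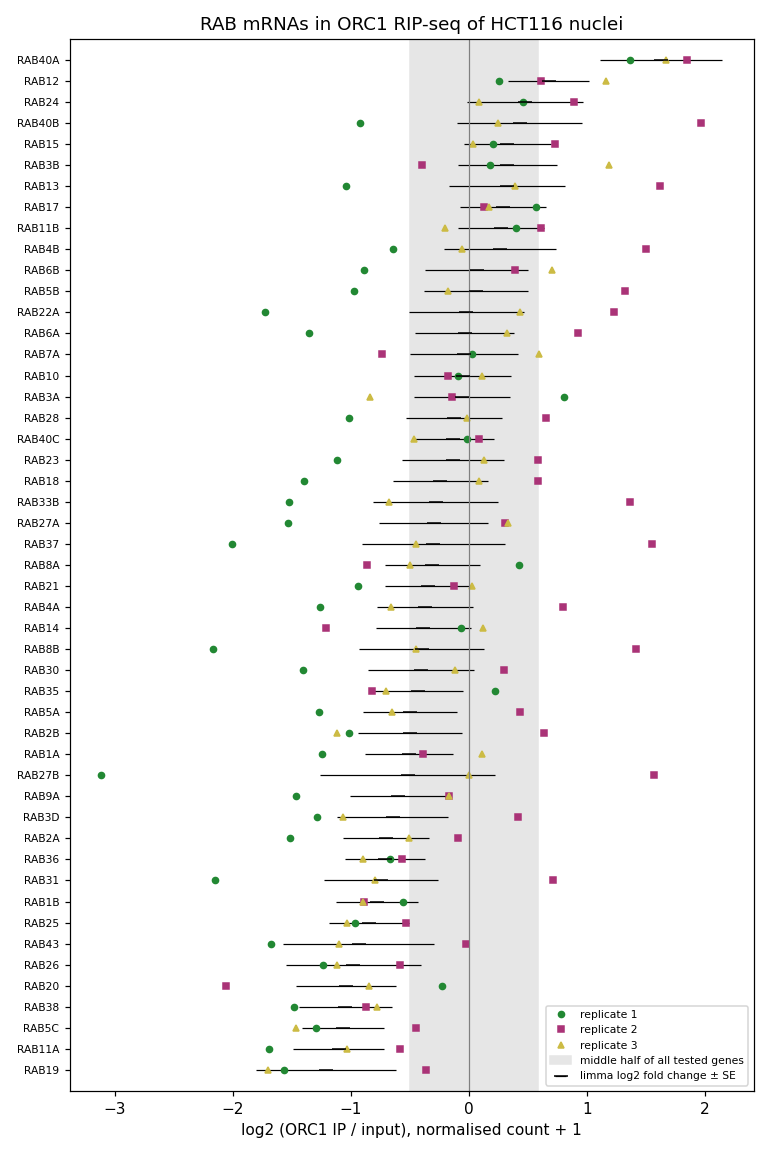
Log2 ratio of ORC1 IP over input (x axis, log2 of normalised count + 1) for the 49 tested RAB mRNAs, ordered by the limma log2 fold change, which is drawn as a tick with its standard error (n = 3 against 3). Coloured points are the 3 numbered replicates and the grey band spans the quartiles of all tested genes. Most ticks lie left of 0, from -1.21 (RAB19) to 1.63 (RAB40A), and the points of replicate 1 lie mostly to the left of those of replicate 2.

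As a share of all normalised counts, RAB mRNAs made up 0.230%, 0.154% and 0.178% of inputs 1, 2 and 3, and 0.1002%, 0.205% and 0.117% of ORC1 IPs 1, 2 and 3. The means were 0.187% ± 0.0387 in the inputs and 0.141% ± 0.0563 in the ORC1 IPs (SD, n = 3), so the difference of -0.0463 percentage points was smaller than the spread between the ORC1 IPs. The summed RAB level, which abundant members dominate, was 33182 to 41775 normalised counts in the inputs and 29942 to 31476 in the ORC1 IPs, without overlap. A share also depends on the other RNAs of a library. ORC1 IPs 1 and 2 had 26213138 and 25134156 reads, but factors for library size of 0.869 and 1.72. The part of other RNAs in the spread of the share was not tested.

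Of the 6 lowest log2 fold changes, 3 were those of RABs of recycling and early endosomes, RAB11A, RAB5C and RAB20. RAB11A, a regulator of the recycling endosome (chr15:65726054-65891989, plus strand), had 3280, 2738 and 3249 normalised counts in the inputs and 1013, 1830 and 1584 in the ORC1 IPs. All 3 ORC1 IPs lay below all 3 inputs, and the log2 fold change of RAB11A was -1.10 ± 0.39 (SE; limma adjusted p = 0.119). RAB5C, an early endosome RAB (chr17:42124978-42155044, minus strand), had 834, 741 and 913 in the inputs and 340, 543 and 329 in the ORC1 IPs. Again the groups did not overlap, and the log2 fold change was -1.07 ± 0.35 (SE; limma adjusted p = 0.1005). RAB25, an epithelial relative of RAB11 (chr1:156061160-156070504, plus strand), had 959, 1020 and 1348 in the inputs and 490, 703 and 658 in the ORC1 IPs, with a log2 fold change of -0.85 (limma adjusted p = 0.171). RAB20, found on endosomes and phagosomes (chr13:110523066-110561722, minus strand), had 217, 399 and 369 in the inputs and 185, 95.2 and 205 in the ORC1 IPs. Its replicate 2 was the lowest ORC1 IP, whereas in RAB11A, RAB5C and RAB25 that library was the highest of the 3, and its log2 fold change was -1.04 (limma adjusted p = 0.172).

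Among RABs of late endosomes and lysosome-related organelles, RAB38, which acts in the biogenesis of melanosomes (chr11:88113251-88175443, minus strand), had 198, 177 and 229 in the inputs and 70.2, 95.8 and 133 in the ORC1 IPs. The groups did not overlap, at a log2 fold change of -1.05 (limma adjusted p = 0.149). RAB7A, the main late endosome RAB, had 3746, 2589 and 2471 in the inputs and 3818, 1557 and 3723 in the ORC1 IPs. Its groups overlapped, with a log2 fold change of -0.038 that turned to 0.15 without input replicate 1 and to 0.39 without ORC1 IP replicate 2.

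At the Golgi apparatus, RAB1B, which acts in transport from the endoplasmic reticulum (chr11:66268590-66277492, plus strand), had 1249, 1458 and 1947 in the inputs and 847, 789 and 1046 in the ORC1 IPs. Without overlap between groups, its log2 fold change was -0.78 (limma adjusted p = 0.217). RAB19, a poorly characterised Golgi RAB (chr7:140404058-140427974, plus strand), gave the lowest log2 fold change, -1.21 (limma adjusted p = 0.261). It rested on 18, 12 and 31 recovered reads in the inputs and 5, 25 and 14 in the ORC1 IPs, which are 18.99, 18.9 and 36.3 against 5.76, 14.5 and 10.4 normalised counts. RAB26, a secretory granule RAB, varied widely within groups, with 473, 1560 and 928 in the inputs and 200, 1040 and 427 in the ORC1 IPs. The groups overlapped, the log2 fold change was -0.98 (limma adjusted p = 0.351), and in both groups replicate 2 was the highest.

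Across the family, all 3 ORC1 IPs lay below all 3 inputs for 10 RAB mRNAs (13.5% of all tested genes) and above them for 2 (12.7%), and 37 overlapped. The 10 were RAB11A, RAB5C, RAB25, RAB20, RAB38, RAB9A, RAB1B, RAB2A, RAB19 and RAB36, and the 2 were RAB12 and RAB40A. RAB9A, RAB2A and RAB36 were singled out by this count after their values were seen.

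**Figure D2:**
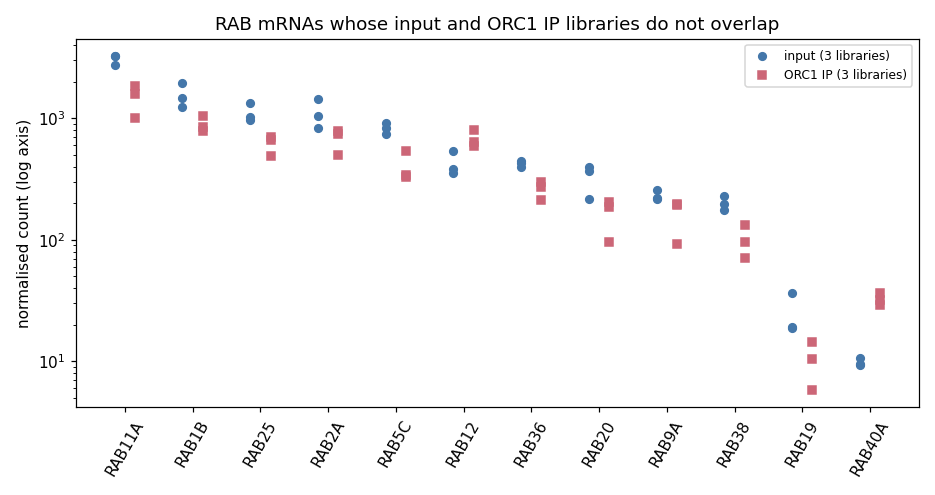
Normalised counts (y axis, log scale) of the 12 RAB mRNAs whose inputs and ORC1 IPs do not overlap, ordered by the mean of the inputs. Each point is 1 library, circles for input and squares for ORC1 IP. Squares lie below circles for 10 mRNAs, such as RAB11A (1013 to 1830 against 2738 to 3280), and above them for RAB12 and RAB40A.

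At the upper end, RAB40A (chrX:103499130-103519489, minus strand) gave the largest log2 fold change, 1.63 ± 0.52 (SE; limma adjusted p = 0.0965). RAB40 proteins carry a SOCS box, with which they recruit a ubiquitin ligase. RAB40A had 10.6, 9.46 and 9.36 normalised counts in the inputs and 28.8, 36.6 and 32.0 in the ORC1 IPs, so all ORC1 IPs lay above all inputs. These values rest on 10, 6 and 8 recovered reads in the inputs and 25, 63 and 43 in the ORC1 IPs. The mean of RAB40A was 9.79 in the inputs, under the filter at 10, and 32.5 in the ORC1 IPs. It thus passed the filter only through the group in which it was high. Of its 50-base stretches, 15.9% occur in other genes, among them the near-identical RAB40AL, so its counts are uncertain. With DESeq2 on recovered reads it was called higher, as the only RAB mRNA (adjusted p = 0.0475, where 6.60% of the genes with an adjusted p were called higher). Over the alternatives tried, its adjusted p ran from 0.0475 to 0.369.

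RAB12, which acts in the degradation of recycled receptors (chr18:8609437-8639383, plus strand), had 535, 385 and 355 in the inputs and 639, 589 and 794 in the ORC1 IPs. The groups did not overlap, and the log2 fold change was 0.68 ± 0.34 (SE; limma adjusted p = 0.275). The next mRNAs were closer to 0 and their groups overlapped. They were RAB24, linked to autophagy (0.48), RAB40B (0.43), RAB15, a RAB of early and recycling endosomes (0.32), and RAB3B, a regulator of exocytosis (0.32). RAB40B was held up by 1 library, since its 311 in ORC1 IP 2 stood against 70.2 and 170 in the ORC1 IPs 1 and 3 and 78.8 to 143 in inputs. Without ORC1 IP replicate 2 its log2 fold change was -0.068. RAB24 shares 46.9% of its 50-base stretches with the neighbouring gene MXD3.

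By the compartment on which each RAB is best known, the medians of log2 fold changes all lay below 0 except that of the RAB40 subfamily. For RABs of the endoplasmic reticulum and Golgi apparatus, 1 of 12 values was above 0 and the median was -0.50. For those of early and recycling endosomes, 5 of 16 were above 0 and the median was -0.38. RABs of late endosomes and lysosomes had a median of -0.32 (1 of 4 above 0), and those of secretory granules a median of -0.30 (1 of 7 above 0). RABs of the cell surface and cilium had a median of -0.13 (2 of 7 above 0). The 3 RAB40 mRNAs had a median of 0.43 (2 of 3 above 0). No member passed the test in any of these groups, and differences between groups were not tested.

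Levels were compared between RAB mRNAs as normalised counts per kilobase of the MANE Select transcript. In inputs, RAB7A was the most abundant, at 1343 ± 322, before RAB25 at 1008 ± 190, RAB10 at 837 ± 239, RAB1B at 816 ± 188, RAB11B at 708 ± 105 and RAB35 at 669 ± 72.5 (SD, n = 3). Each neighbouring pair in this order differed by less than the sum of its SDs. RAB10 acts in transport to the cell surface, and RAB35 in fast recycling from endosomes. The lowest tested gene was RAB40A, at 4.97 ± 0.336 per kilobase. Of these 6, RAB25 (-0.85) and RAB1B (-0.78) lay in the lower part of the family, RAB35 (-0.43) near its middle, and RAB10 (-0.053), RAB7A (-0.038) and RAB11B (0.27) above it.

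Ratios between 2 mRNAs of a subfamily are independent of the scaling of a library, and were compared in each library for the 16 pairs. The ratio of RAB11A to RAB11B was 2.54, 2.86 and 2.88 in the inputs and 0.593, 1.25 and 1.61 in the ORC1 IPs. All 3 ratios of the ORC1 IPs lay below all 3 of the inputs. These are ratios of normalised counts, not corrected for length. Per kilobase of transcript, RAB11B was the higher of the pair in each input, at 813, 603 and 709 against 670, 559 and 664 for RAB11A. This order rests on MANE Select lengths of 4895 nt for RAB11A and 1590 nt for RAB11B. Which transcripts were present was not measured. RAB11B itself had 1293, 958 and 1128 in the inputs and 1710, 1465 and 982 in the ORC1 IPs, with a log2 fold change of 0.27 (limma adjusted p = 0.713). The difference between the log2 fold changes of the pair was -1.38.

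Within the RAB5 subfamily the ratios that separated were those with RAB5C. The ratio of RAB5B to RAB5C was 0.334, 0.194 and 0.278 in the inputs and 0.417, 0.665 and 0.683 in the ORC1 IPs, and that of RAB5A to RAB5C was 0.758, 0.589 and 0.479 against 0.769, 1.09 and 0.844. Both ratios were higher in all ORC1 IPs than in all inputs. For RAB5A to RAB5C the margin was narrow, at 0.769 in ORC1 IP 1 against 0.758 in input 1. The ratio of RAB5A to RAB5B overlapped. RAB5C shares 36.2% of its 50-base stretches with an overlapping gene model, so its counts may hold reads of both.

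The ratio of RAB40A to RAB40C was 0.0385, 0.0278 and 0.0272 in the inputs and 0.106, 0.101 and 0.129 in the ORC1 IPs. RAB40A passed the filter on low values only through its ORC1 IPs, so the separation of this ratio is not independent of the filter. The ratio of RAB4A to RAB4B, a pair that sorts cargo from early endosomes, was 5.69, 4.91 and 4.41 in the inputs and 3.72, 3.00 and 2.91 in the ORC1 IPs, although 56.2% of the 50-base stretches of RAB4B also occur in other genes. In all, 5 of 16 ratios, RAB40A to RAB40C among them, did not overlap between groups, 3 higher and 2 lower in ORC1 IP. For each of these a two-sided exact permutation test gave p = 0.1, the smallest that 3 libraries against 3 allow, and 0.32 after Benjamini-Hochberg adjustment over the 16 pairs, which share members. No pair could pass 0.05 in this design. How often ratios of other gene pairs separate in this way was not counted, so 5 of 16 stands without a background.

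**Figure D3:**
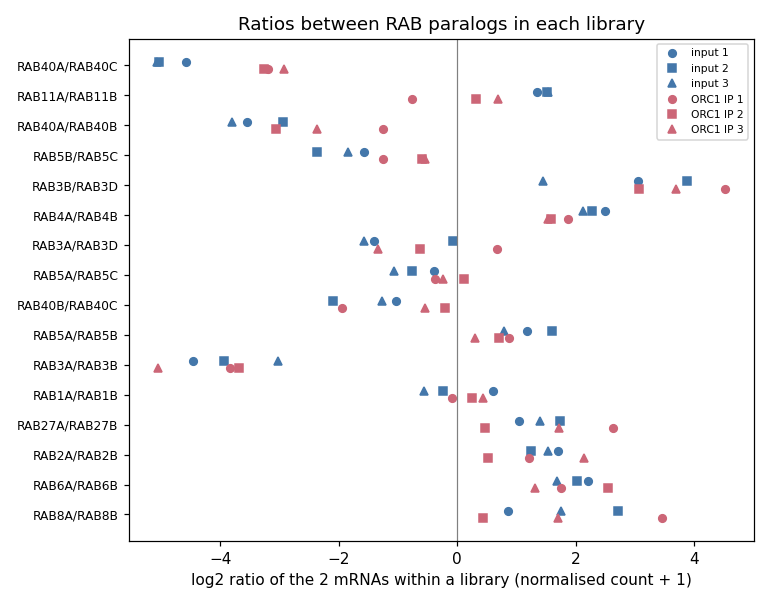
Log2 ratio of the normalised counts (+ 1) of 2 mRNAs of the same RAB subfamily (x axis) in each library, for 16 pairs ordered by the size of the difference between groups. Blue symbols are inputs, red symbols ORC1 IPs, and the shape gives the replicate number. Inputs and ORC1 IPs are separate for 5 pairs, of which RAB11A/RAB11B and RAB4A/RAB4B lie lower in ORC1 IP.

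To set the RAB mRNAs beside others of their pathway, lists of RAB cycle genes were read from the same fit. These lists were written with earlier results of the whole series known, so their counts are descriptions. Of 147 tested genes, 6 were higher in ORC1 IP and 0 lower at an adjusted p under 0.05 in limma, against 2.28% and 1.42% of all tested genes. At an unadjusted p under 0.05, 19 were higher and 6 lower (12.2% and 9.45% of all genes), an upward share close to that of all genes. Their median log2 fold change was 0.30, and 102 of 147 lay above 0. EEA1, the tether of early endosomes that binds RAB5, rose from 726, 295 and 211 to 5117, 1010 and 2703 normalised counts (2.76 ± 0.58, SE; limma adjusted p = 0.0276). GOLGB1, a long coiled-coil tether of the Golgi apparatus known as giantin, rose from 2319, 908 and 850 to 6497, 4665 and 10291 (2.48 ± 0.50, SE; limma adjusted p = 0.0232). GCC2, a tether of the trans-Golgi network, rose from 583, 177 and 138 to 1077, 1139 and 1619 (2.37 ± 0.49, SE; limma adjusted p = 0.0258). In all 3 the lowest ORC1 IP was above the highest input, which was input 1.

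The other 3 genes called were SYTL2, an effector of RAB27 in granule secretion (1.71; limma adjusted p = 0.0239), BICD1, an adaptor that links RAB6 vesicles to dynein (1.57; limma adjusted p = 0.0478), and SGSM2, a GAP (1.57; limma adjusted p = 0.0323). With the replicate number as a block, the adjusted p of SGSM2 was 0.0535 in limma. Leaving out input 2, input 3 or ORC1 IP 3 left 0 of the 147 genes called. Over all genes, 42 of 16379, 4 of 16551 and 24 of 16627 were then called higher. Leaving out ORC1 IP 1 left 3 (EEA1, GCC2 and GOLGB1), where 195 of 16510 tested genes were called higher. Without ORC1 IP replicate 2, 33 were called higher and 1 lower, where 1961 of 16356 tested genes were called higher and 1059 (6.47%) lower. Correcting each library for GC content and length left 0 called, at log2 fold changes of 2.09 for EEA1, 1.79 for GOLGB1, 1.77 for GCC2, 1.56 for SGSM2, 1.16 for SYTL2 and 0.93 for BICD1. Their limma adjusted p then ran from 0.0562 (SGSM2) to 0.175 (BICD1), and 90 of all genes were still called higher.

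The 6 called genes were effectors, 5 of 57 tested, and GAPs, 1 of 38, where 2.28% of all genes were called higher. Effectors had a median log2 fold change of 0.57 and GAPs of 0.32. None of 44 GEFs was called in limma (median 0.14), with 2 higher and 3 lower at an unadjusted p under 0.05 (12.2% and 9.45% of all genes). Of 8 genes for prenylation, GDI and chaperones, 0 were called (median -0.16), with 0 higher and 2 lower at an unadjusted p under 0.05. These 2 were RABIF, a chaperone of nucleotide-free RABs (-1.31; limma adjusted p = 0.0776), and RABAC1, which binds prenylated RABs (-1.18; limma adjusted p = 0.123), both named after their values were seen. The lists were written with earlier results known and share their libraries with the RAB mRNAs, and the differences between lists were not tested.

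**Figure D4:**
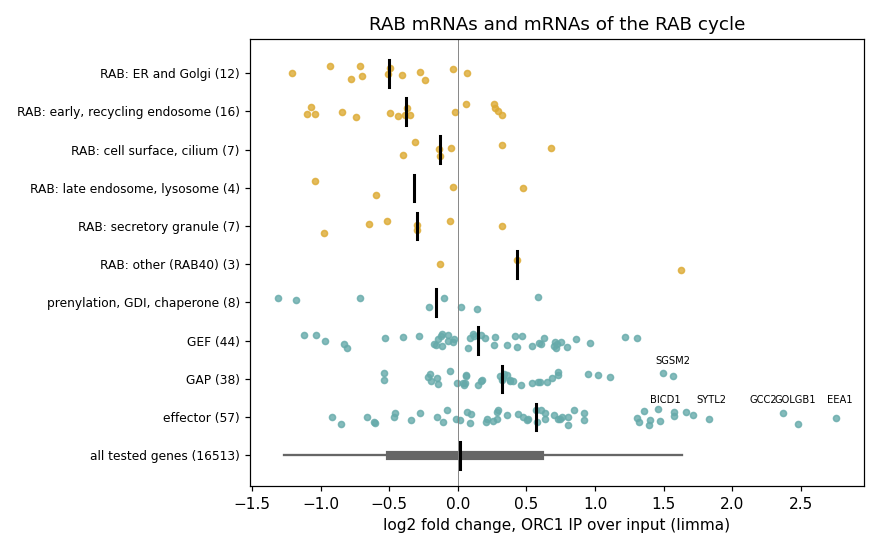
Limma log2 fold change of ORC1 IP over input (x axis) for RAB mRNAs by compartment (yellow) and for other genes of the RAB cycle by role (green), 1 point per gene, with the number tested in brackets and the median as a black line. The bottom row gives the quartiles (thick bar) and the range from the 5th to the 95th percentile (thin bar) of all 16513 tested genes. Named genes are the 6 with an adjusted p under 0.05, all of them effectors or GAPs.

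RAB mRNAs are of average length for the tested genes, while those of their regulators are long. The median of the longest annotated transcript was 3211 nt for RAB genes and 3283 nt for all genes, against 5628 nt for GEFs, 5364 nt for GAPs and 5085 nt for effectors. Across 16062 genes the log2 fold change correlated with this length at a Spearman rho of 0.336, and across the 147 RAB cycle genes at 0.517. Across the 49 RAB genes the rho was 0.129, and -0.011 with the length of the MANE Select transcript, an alternative added after the data were seen. With the longest transcript it was -0.339, 0.245 and 0.312 in replicates 1, 2 and 3, against 0.156, 0.155 and 0.437 across all genes. For the 43 RAB genes with a mean of at least 100 normalised counts it was 0.261 with the limma log2 fold change. Points of such a correlation share the same 6 libraries and are not independent, so no p is given. With tested genes split into 10 classes of equal size by length, 37 of 49 RAB mRNAs lay below the median of their class, by a median of 0.34 on the log2 scale. After a correction of each library for GC content and length, the median log2 fold change of RAB mRNAs was -0.51.

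**Figure D5:**
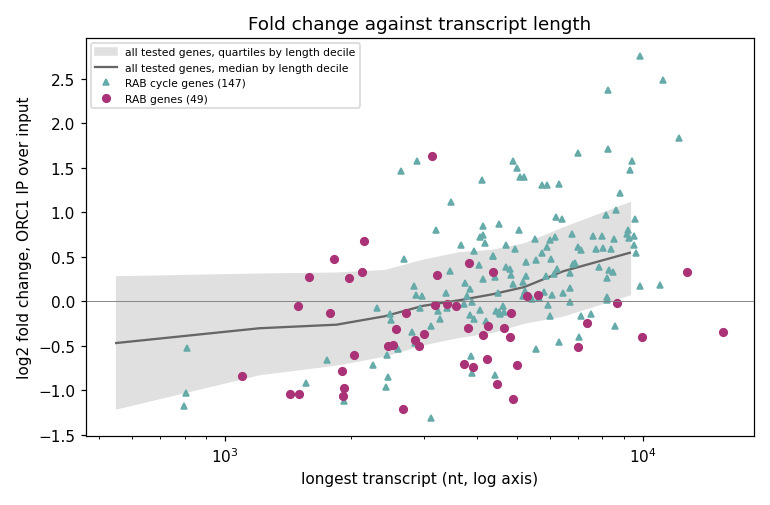
Limma log2 fold change of ORC1 IP over input (y axis) against the length of the longest transcript in GENCODE v44 (x axis, nt, log scale). Circles are the 49 RAB mRNAs, triangles 147 other genes of the RAB cycle, and the grey line and band give the median and quartiles of all tested genes by length decile. The grey line climbs with length, and 37 of the 49 circles lie below the median of their length decile.

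GC content moved with the RAB values in a way that differed by replicate. The median GC content of the longest transcript was 46.1% for RAB genes and 48.1% for all genes. Its Spearman rho with the log2 IP/input of RAB mRNAs was 0.523, -0.234 and -0.313 in replicates 1, 2 and 3, and 0.035 with the limma log2 fold change. Across all genes the values per replicate were 0.135, -0.218 and -0.326. In replicate 1 the RAB mRNAs of low GC content thus had the lowest ratios, and in replicates 2 and 3 the sign was the opposite, in a ranking that rests on the numbering of the libraries. The part of GC content in the RAB values was not tested beyond the correction above.

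The study found GAA repeats enriched in RNAs that bind ORC1, by a motif search, and concluded that ORC1 does not contact RNA through them. Here the longest transcripts were searched on the sense strand for GAAGAAGAA, an exact run and not the motif of the study. This run of letters occurred in 1 of 49 RAB transcripts (2.04%), in 12.9% of 16062 tested genes with a sequence, and in 31 of 147 RAB cycle genes (21.1%). Between the quartiles of RAB lengths, 0 of 25 RAB transcripts and 10.6% of 6319 genes held it. The RAB cycle genes, with a longer median transcript (5173 nt against 3283 nt for all genes), were not compared at matched length. The complement read in the other direction, TTCTTCTTC, was in 4 of 49 RAB transcripts (8.16%) and in 4.84% of tested genes. The 1 RAB transcript with GAAGAAGAA was that of RAB21, an early endosome RAB with the longest transcript of the family (15558 nt). The match, in capitals, lies in the 3′ untranslated region at chr12:71789051-71789079 on the plus strand (GRCh38).

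RAB21: acattaaagtGAAGAAGAAgagtagtact

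RAB21 had 1738, 1007 and 868 normalised counts in the inputs and 906, 924 and 882 in the ORC1 IPs. The groups overlapped, and its log2 fold change was -0.35 (limma adjusted p = 0.631). A match is a description of the letters of a transcript and not of a binding site.

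Several RAB counts may hold reads of other genes. More than 10% of the 50-base stretches of 7 RAB genes occur elsewhere in the transcriptome, with the highest share in RAB43 (90.7%, through the read-through gene ISY1-RAB43). In 10 RAB genes more than 10% of exon bases lie under an exon on the opposite strand, among them RAB23 (57.8%, under BAG2), RAB1B (43.8%) and RAB8A (39.7%). The library kit was stranded, but the sources used here do not say whether counting used the strand. Of the 12 RAB mRNAs without overlap between groups, RAB5C, RAB40A and RAB1B belong to these genes, and the others do not.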

How the data were processed

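ORC1 IPs and inputs of nuclear RNA (3 libraries each) were compared from 1 table of the series. Per the labels and the study's methods, the authors used Trimmomatic for trimming, STAR for alignment to hg19 and featureCounts for counting per gene. The deposited values were a signal, counts divided by size factors of DESeq2, from which whole reads were recovered for 100% of values (tolerance 0.001). The 6 other deposited columns, which hold the authors' own comparison (a mean, log2 fold change, standard error, a Wald score and p-values from DESeq2), were not used. Depth, 13703033 reads or more per library, leaves RAB mRNAs below about 10 normalised counts imprecise.

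log2(normalised count + 1) was tested with limma 3.58.1 (intensity trend, no block) for genes with a mean of at least 10, with Benjamini-Hochberg adjustment over all 16513 genes. Fold changes on this scale understate those of low genes. Alternatives were pseudocounts of 0.5 and 5, other filters, total-count and TMM scaling, edgeR 4.0.16 and DESeq2 1.42.0 on recovered reads, a replicate block, a correction for GC content and length (splines, 4 degrees of freedom) and leaving out each library. On simulated data for this comparison, with 16500 genes tested, limma recovered 40.6% of genes changed by 1 and 100% of genes changed by 2 on the log2 scale. The simulation gave each gene the same spread between replicates, set in advance and not estimated from these libraries. These shares therefore do not give the power of the real comparison.

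By its label each library belongs to a numbered RIP replicate, which is where the pairing comes from. Its check gave correlations of -0.322, -0.240 and 0.215, so 2 of 3 were negative. GENCODE v44 (GRCh38) gave the transcripts, joined on Ensembl identifiers alone, for 22157 of 23013 genes and all 52 RAB genes, since the files are on hg19. The RAB genes and all lists were chosen with earlier results of these data known. Named genes were called RAB genes, the 6 highest and 6 lowest log2 fold changes, the 6 highest input levels per kilobase, subfamily pairs, called RAB cycle genes and those nearest the filter. Protein sequences were not used here.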

Additional observations from a re-analysis of the deposited data

How the results depend on the processing

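Of 18 alternatives, 16 left all RAB mRNAs uncalled. DESeq2 called 1 higher (RAB40A), and leaving out ORC1 IP replicate 2 called 3 lower (RAB11A, adjusted p = 0.0187; RAB26, 0.0320; RAB5C, 0.0135 in limma), where 6.47% of all genes were called lower, so leaving out 1 library gave 0 to 3. The median log2 fold change of RAB mRNAs stayed below 0 in each, from -0.53 with total-count scaling, which moved the median of all genes to -0.19, to -0.13 without input replicate 1. RAB mRNAs past the threshold of the study numbered 0 upward with a filter at a mean of 50 or total-count scaling, and 1 to 7 downward when 1 library was left out, with 1 without input replicate 3 or ORC1 IP replicate 1 and 7 without ORC1 IP replicate 2.

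Calls over all genes depended more on the settings. They were 376 higher and 234 lower as reported, 87 and 96 with total-count scaling, 1254 and 677 with DESeq2, 143 and 96 in limma without the trend, 90 and 38 after correction for GC content and length, and 4 to 1961 and 20 to 1059 when 1 library was left out. RAB cycle genes called higher numbered 2, 18, 1 and 0 under these settings in turn and 0 to 33 when 1 library was left out, and those lower 1 with DESeq2 and 0 to 1 when 1 library was left out. With the replicate block, 433 genes were higher and 191 lower, RAB calls stayed at 0 and the only call lost among genes named here was that of SGSM2. The cause of these shifts was not tested.

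Among 18 named RAB mRNAs the sign turned for 4. The log2 fold change of RAB3B was -0.35 after correction for GC content and length, and that of RAB40B ran from -0.068 to 1.00 when 1 library was left out. RAB10 ran from -0.25 to 0.16 in the same way and was above 0 without input replicate 1, ORC1 IP replicate 2 or ORC1 IP replicate 3. RAB7A lay at 0.0053 with TMM, 0.038 with edgeR, 0.047 with DESeq2 and 0.021 after the correction, and ran from -0.26 to 0.39 when 1 library was left out.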
